A study of Homo sapiens with 8 samples.

Results

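Keratins are the intermediate filament proteins of epithelial cells, and the 8 genes described here are those used to tell luminal from basal cells of glandular epithelium: KRT8, KRT18, KRT19, KRT7, KRT5, KRT14, KRT15 and KRT17. All probe sets that the platform's annotation assigns to these genes were taken, including one that carries several symbols. This gave 9 probe sets for 7 genes, out of 33297 probe sets on the array and 21214 with a gene symbol (20172 genes). KRT18 had 3 probe sets, KRT8, KRT19, KRT7, KRT5, KRT14 and KRT15 had 1 each, and KRT17 was not analysed here.

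Transcripts were measured on 8 Affymetrix arrays, 1 per cell line and construct. LNCaP and DU145 are established human prostate cancer lines, the former responsive to androgen and the latter growing without it. Each line was grown in RPMI medium with 10% serum and transfected with a single RNA, and its RNA was taken 72 hours later. The RNAs were miR-29b and its negative control (nc), and siTET2, directed at the DNA demethylation enzyme TET2, and its own control (siControl). No group had a second array, and each line is 1 cell line, so a difference between lines is one between these lines and not between classes of tumour.

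A keratin filament is built from pairs of a type II and a type I protein. KRT8 (type II) and KRT18 (type I) form the first pair of simple epithelia and mark luminal cells of the prostate, and KRT7 (type II) and KRT19 (type I) are further keratins of simple and ductal epithelia. KRT5 (type II) pairs with KRT14 or KRT15 (both type I) in the basal layer. On GRCh38.p14, KRT7, KRT5, KRT8 and KRT18 lie on chromosome 12 and KRT15, KRT19, KRT14 and KRT17 on chromosome 17. KRT8 (12, 52897191 to 52949860) and KRT18 (12, 52948855 to 52952906) overlap at their ends in RefSeq.

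The RNA transfected as miR-29b belongs to a family defined by its seed. RefSeq's mature sequence of the 3p arm is shown because it is the arm the family's known targets pair with, although the labels do not say which arm was used. Capitals mark the seed, bases 2 to 8.
hsa-miR-29b-3p: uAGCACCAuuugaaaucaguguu
RefSeq's promoter table held a window of 300 bases, from 250 before the start to 50 after it, for KRT8 and KRT5 among these genes. They are shown because TET enzymes act on methylated CG dinucleotides, which are in capitals here. Both are on the minus strand of GRCh38.p14.
KRT8, chr12:52926420-52926719: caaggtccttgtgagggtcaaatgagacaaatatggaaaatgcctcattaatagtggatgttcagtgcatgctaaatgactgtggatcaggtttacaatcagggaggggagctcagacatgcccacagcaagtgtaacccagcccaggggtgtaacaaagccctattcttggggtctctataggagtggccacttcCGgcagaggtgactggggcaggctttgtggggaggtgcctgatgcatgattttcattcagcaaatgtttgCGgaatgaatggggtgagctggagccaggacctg
KRT5, chr12:52520345-52520644: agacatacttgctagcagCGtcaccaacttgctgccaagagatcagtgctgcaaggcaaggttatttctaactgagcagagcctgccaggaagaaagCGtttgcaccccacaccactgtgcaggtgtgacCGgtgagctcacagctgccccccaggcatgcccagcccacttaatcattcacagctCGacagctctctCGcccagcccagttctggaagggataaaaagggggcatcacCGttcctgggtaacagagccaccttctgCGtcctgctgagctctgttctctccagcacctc

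The KRT8 window holds 2 CG dinucleotides and the KRT5 window 7, against a median of 14 over 35116 RefSeq windows of the same length. At or below those counts lie 18.2% and 39.3% of the windows. The motif TATAAA was found in neither window on the gene's strand, and 7.33% of all windows hold it there. KRT8 has several RefSeq transcripts, its window lies inside the gene's outer limits, and which start these cells use was not tested. No methylation was measured.

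TET2 itself checked the transfection labels. In LNCaP it read 9.01 (log2) for siControl against 7.89 for siTET2, and in DU145 it read 7.85 against 6.60. For nc and miR-29b it read 9.24 and 8.59 in LNCaP, and 7.96 and 7.79 in DU145. Array medians over all probe sets lay between 7.10 and 7.17 in LNCaP and between 6.59 and 6.66 in DU145, so levels were set between lines only by rank. The within-array percentile is the rank of a probe set's signal among the 21214 with a symbol. Signal also depends on the probes, so the percentile of one gene does not give its transcript amount relative to another.

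The keratins fell into 3 patterns by line. KRT8 and KRT18 were near the top of every array of both lines, KRT7 and KRT19 were high in DU145 and below the median in LNCaP, and KRT5, KRT14 and KRT15 lay in the lower or middle part of the range in both. In the line comparison, limma was run on values rank-matched over the 8 arrays, with construct as a term. Of the 9 keratin probe sets, 4 were higher and 1 lower in DU145 at a limma adjusted p under the threshold of 0.05, against 31.5% higher and 36.3% lower (67.8% in all) among the 21214 probe sets. A count of called keratins is therefore near the background, and the sizes carry the description. Only the scatter that line and construct leave over among the 8 arrays enters these p-values, and no repeat of a group does. With 1 array per line and construct, technical scatter and line-specific responses to a construct cannot be told apart in it.

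**Figure D1:**
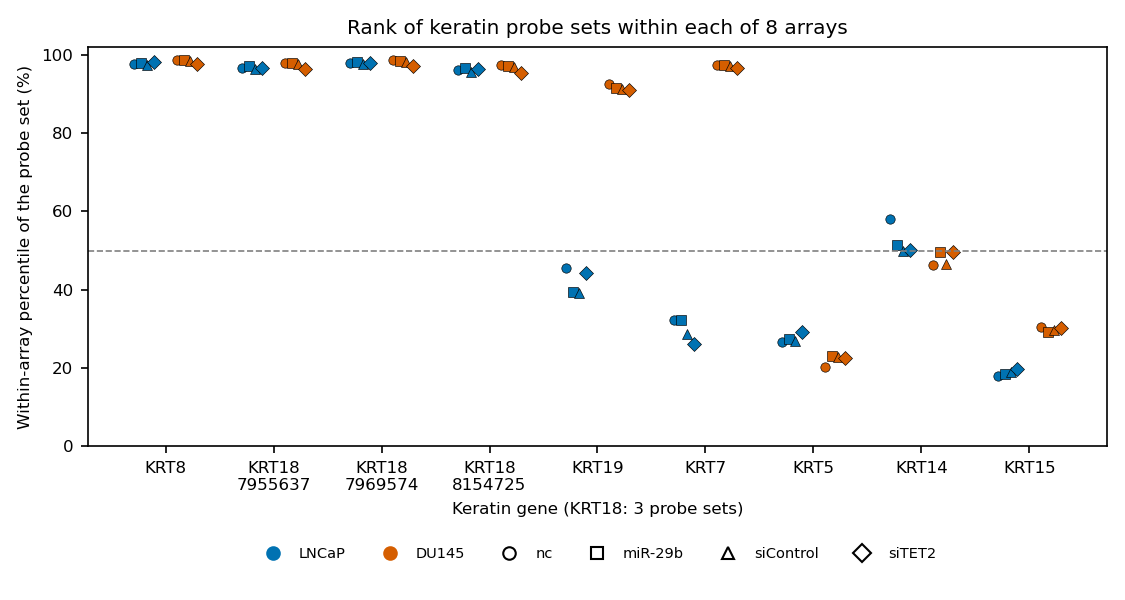
Within-array percentile (vertical axis, %) of each keratin probe set in the 8 arrays, coloured by line and shaped by construct; the dashed line is the array's median. KRT7 lies between 26.2% and 32.4% in LNCaP and between 96.6% and 97.5% in DU145, whereas KRT8 lies above 97% in all 8 arrays.

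KRT7, a type II keratin of ductal epithelium, showed the widest gap. Its log2 value in LNCaP was 6.71 with nc, 6.66 with miR-29b, 6.29 with siControl and 6.21 with siTET2. In DU145 it was 11.78 with nc, 11.72 with miR-29b, 11.64 with siControl and 11.45 with siTET2. Every DU145 array was far above every LNCaP array. After rank matching the difference between lines was 5.60 (SE 0.0784, limma adjusted p = 1.57e-09), and 88 of 21214 probe sets (0.415%) differed by as much in either direction.

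KRT19, the type I keratin that lacks most of the tail domain, had the same order of lines. In LNCaP its log2 value was 7.46 with nc, 7.07 with miR-29b, 6.94 with siControl and 7.31 with siTET2. In DU145 it was 10.74 with nc, 10.58 with miR-29b, 10.55 with siControl and 10.50 with siTET2. The lines did not overlap, with percentiles of 39.2% to 45.5% in LNCaP and 91.0% to 92.4% in DU145. The rank-matched difference was 3.71 (SE 0.0912, limma adjusted p = 1.72e-08), a size reached by 1.62% of probe sets. KRT7 and KRT19 kept this call in each of 12 alternative fits. No detection call was used here, so the LNCaP signals of KRT7 and KRT19 are not shown to be above background, and both differences may be lower bounds.

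KRT8, the type II keratin of luminal cells, lay between the 97.3 and 98.3 percentile in LNCaP and between the 97.6 and 98.8 percentile in DU145. The line ranges overlapped, and the rank-matched difference was 0.26 (SE 0.133, limma adjusted p = 0.111). KRT18 was measured by 3 probe sets. Probe set 7955637 was higher in DU145 by 0.30 (SE 0.0952, limma adjusted p = 0.0236), whereas probe set 8154725 differed by 0.18 (limma adjusted p = 0.177) and probe set 7969574 by 0.14 (limma adjusted p = 0.242). The percentiles of the lines overlapped for all 3. The call of 7955637 was lost on the deposited values (0.12) and when a nc, miR-29b or siControl array was left out (0.25 to 0.29, limma adjusted p from 0.0749 to 0.0938). Without a siTET2 array, by contrast, all 4 probe sets of KRT8 and KRT18 were higher in DU145, with KRT8 at 0.45 (limma adjusted p = 0.00376) and KRT18 at 0.25 to 0.41.

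The basal keratins had low or middle ranks in both lines. KRT5 in LNCaP had log2 values of 6.37 with nc, 6.35 with miR-29b, 6.19 with siControl and 6.41 with siTET2, and in DU145 of 5.07, 5.41, 5.32 and 5.35 in that order. Its percentile was 26.7% to 29.2% in LNCaP and 20.4% to 23.0% in DU145, so it was lower in DU145 in every array. The rank-matched difference was -0.34 (SE 0.0772, limma adjusted p = 0.00505). On the deposited scale, where the median difference over all named probe sets was -0.53, that of KRT5 was -1.04 (limma adjusted p = 9.95e-06). No detection call was used, so the signals of KRT5 and KRT15 are not shown to be above background in either line.

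KRT15 lay on the other side. Its percentile was 18.0% to 19.8% in LNCaP and 29.3% to 30.5% in DU145, with a rank-matched difference of 0.81 (SE 0.0662, limma adjusted p = 1.47e-05). On the deposited scale its values were nearly level, from 5.72 to 5.83 in LNCaP and from 5.85 to 5.93 in DU145, and the difference was 0.10 (limma adjusted p = 0.205). Its call between lines thus depends on the scale.

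KRT14, the keratin of the basal layer known for mutations in blistering skin disease, was at 8.20 with nc, 7.81 with miR-29b, 7.63 with siControl and 7.69 with siTET2 in LNCaP. In DU145 it was at 7.10, 7.34, 7.10 and 7.32 in the same order. Percentiles were 49.8% to 58.1% in LNCaP, where 3 of 4 arrays reached the median, and 46.3% to 49.7% in DU145, where 0 did. The rank-matched difference was -0.23 (SE 0.128, limma adjusted p = 0.147). On the deposited scale, with its median difference of -0.53 over all probe sets, it was -0.62 (limma adjusted p = 0.0013). The nc array of LNCaP held the highest KRT14 value, and without a nc array the difference was -0.05.

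Of the 9 probe sets, 5 (KRT19, KRT7, KRT5, KRT14 and KRT15) had percentiles that did not overlap between lines, 3 of them higher and 2 lower in DU145, against 62.5% of all probe sets (27.7% higher and 34.8% lower). An exact two-sided permutation test of 4 arrays against 4 gave p = 0.0286 for each of them, the smallest value this test allows, and 0.114 to 0.543 for KRT8 and KRT18. Percentiles that do not overlap always give that smallest value, so it restates the lack of overlap and is no further support. The test did not pair the arrays by construct. On the deposited scale the median of the line differences of the 21214 named probe sets was -0.53, against -0.05 after rank matching. That scale called 3927 higher and 14148 lower in DU145 (21.7% higher), against 6672 and 7710 (46.4% higher).

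**Figure D2:**
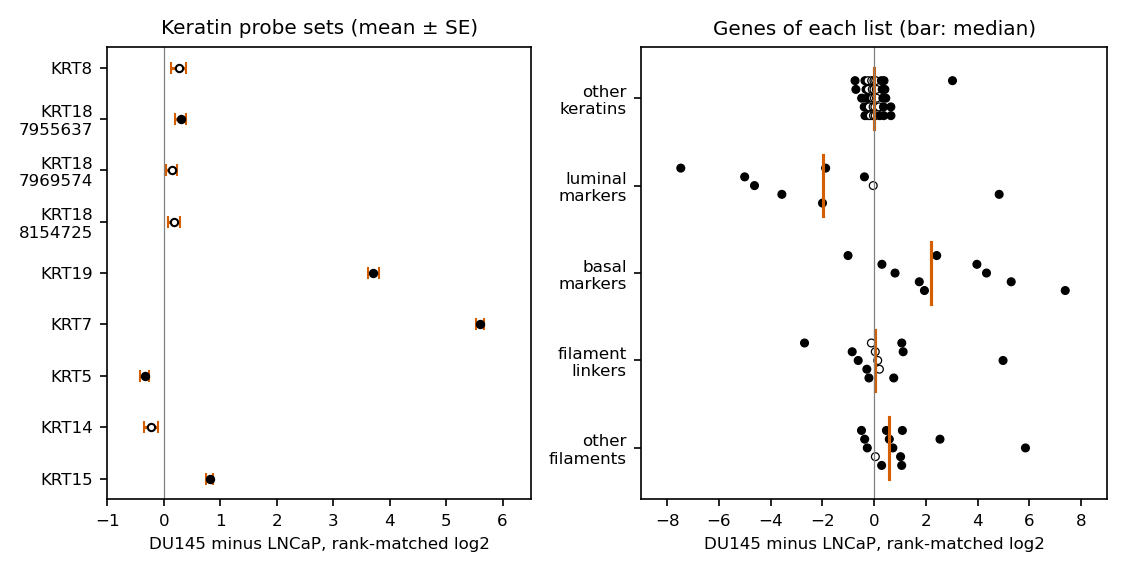
Rank-matched log2 difference of DU145 minus LNCaP for the keratin probe sets (left, estimate with standard error) and for the genes of 5 lists (right, 1 point a gene, bar at the median); filled points passed limma's adjusted threshold. KRT7 (5.60) and KRT19 (3.71) stand to the right, KRT80 (3.03) is the rightmost of the other keratins, and basal markers have a median of 2.18 against -1.99 for luminal markers.

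Luminal and basal markers other than keratins were read beside these. Of 9 luminal markers analysed here, 7 were higher in LNCaP and 1 in DU145 by limma. Among all probe sets 36.3% were higher in LNCaP and 31.5% in DU145, which is the background of the luminal and basal lists. KLK3, the prostate-specific antigen, differed by -7.47, HOXB13, a prostate homeobox factor, by -5.00, and ACP3, prostatic acid phosphatase, by -4.62, whereas CD24 differed by 4.83. Of 10 basal markers, 9 were higher in DU145, led by CAV1, a protein of caveolae (7.39), CD44, a hyaluronan receptor (5.30), LAMB3, a laminin chain (4.34), and SFN (3.97). The basal keratins are not in that list. KRT15 was higher in DU145 after rank matching but was not called on the deposited scale (0.10), and it lay below the median in all 8 arrays. After rank matching KRT5 was lower in DU145 and KRT14 was not called. Luminal markers at or above the median numbered 7 to 8 in each LNCaP array and 4 to 5 in each DU145 array, and basal markers 2 and 7. Of 10 fibroblast markers 0 to 2 reached the median, and of 9 immune markers 1 did in every array. Summed linear signals of the fibroblast list were 788 to 921 in LNCaP and 449 to 499 in DU145. Those of the immune list were 788 to 949 in LNCaP and 1895 to 2397 in DU145, higher in the line where KRT7 and KRT19 were high. The immune marker above the median was CD68, a lysosomal protein, while PTPRC, the pan-leukocyte marker, lay between the 1.65 and 4.42 percentile in all 8 arrays. CD68 and PTPRC are named after their values were seen, and the part of these lists in the keratin values was not tested. In such bulk RNA, fewer cells with a transcript and less of it per cell cannot be told apart.

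Among 41 other keratins, 12 were higher in DU145 and 11 in LNCaP by limma, with a median difference of -0.01, against 31.5% and 36.3% of all probe sets, which is also the background of the next lists. All but 1 lay below the median of all 8 arrays. The exception was KRT80, a type II keratin, with a percentile of 64.5% to 72.1% in DU145 and 21.6% to 25.3% in LNCaP and a difference of 3.03 (SE 0.108, limma adjusted p = 1.19e-07). KRT76 (-0.74), KRT3 (-0.71) and KRT4 (0.65) differed next most. Of 13 other cytoplasmic filament genes, 9 were higher in DU145 and 3 in LNCaP. VIM, the filament of mesenchymal cells, led with 5.85, at 97.6% to 97.8% in DU145, and INA (2.55), BFSP1 (1.09) and NES (1.07) followed. Of these 13 filament genes, 1 to 2 reached the median in each LNCaP array and 2 to 3 in each DU145 array. BFSP1 and NES lay below it in all 8 arrays. A list of 13 genes held 11 linkers of filaments, plaque proteins and binding proteins beside KRTCAP2 and KRTCAP3, keratinocyte-associated proteins not known as linkers. Of the 13, 4 were higher in DU145 and 5 in LNCaP, and KRTCAP2 (-0.20) and KRTCAP3 (-0.85), named after their values were seen, are 2 of the 5. DST, the gene of the hemidesmosome plakin BPAG1 and its relatives, differed by 4.98, EPPK1 by -2.69, PLEC by 1.12 and PPL by 1.07.

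The second comparison was that of siTET2 with siControl within each line. KRT8 and KRT18 had lower values with siTET2 in DU145 and higher or equal values in LNCaP. In DU145, KRT8 was 12.35 with nc, 12.22 with miR-29b, 12.19 with siControl and 11.75 with siTET2. The siTET2 array was the lowest of the 4, and KRT8 was 1.35-fold lower there than with siControl (a log2 difference of -0.44). In LNCaP it was 11.96 with nc, 12.04 with miR-29b, 11.91 with siControl and 12.24 with siTET2. There the siTET2 array was the highest, 1.26-fold above siControl (a log2 difference of 0.33).

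KRT18, the partner of KRT8, showed the same order of arrays in DU145. Probe set 7955637 was 12.00 with nc, 11.97 with miR-29b, 11.77 with siControl and 11.43 with siTET2. The differences of siTET2 from siControl were -0.34 (7955637), -0.40 (7969574) and -0.40 (8154725), and the siTET2 array was the lowest in all 3. In LNCaP probe set 7955637 was 11.67 with nc, 11.78 with miR-29b, 11.59 with siControl and 11.67 with siTET2. The siTET2 differences were 0.08, 0.05 and 0.18 in the same order, inside the range of the line's other arrays.

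The 3 KRT18 probe sets are no independent measurements of KRT18. The annotation gives all of them the same transcripts, and 7969574 also carries MIR622, a microRNA gene on chromosome 13 (90231182 to 90231277) that lies within KRT18P27 (90230331 to 90231737), a pseudogene of KRT18. Signal from KRT18 and from such copies cannot be told apart here, and KRT14 shares long stretches of near-identical sequence with KRT16 and KRT17, so its signal is uncertain in the same way.

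**Figure D3:**
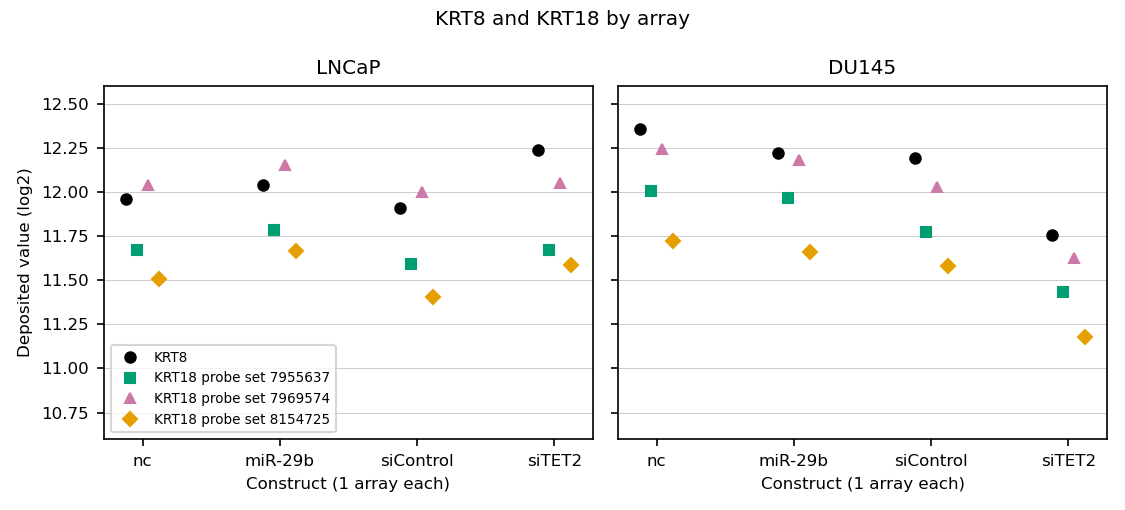
Deposited log2 values (vertical axis, not from 0) of KRT8 and the 3 KRT18 probe sets in each array, by construct. In DU145 all 4 points are lowest with siTET2 (KRT8 at 11.75 against 12.19 to 12.35 in the other arrays), and in LNCaP KRT8 is highest with siTET2 (12.24).

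No keratin probe set reached 2-fold or 1.5-fold between siTET2 and siControl in either line. Among all probe sets above a level floor (the array's median in at least 1 of the 2 arrays), 0.138% reached 2-fold in LNCaP and 0.313% in DU145, and 2.73% and 2.4% reached 1.5-fold. For KRT8 in DU145, 5.74% of 10857 probe sets lay at least as far from 0, and in LNCaP 11.6% of 10863. The control arrays differed in KRT8 by -0.16 in DU145 and -0.05 in LNCaP (siControl minus nc). Set against nc, KRT8 with siTET2 was at -0.60 in DU145, a gap over 1.5-fold as also for KRT18 probe set 7969574, and at 0.28 in LNCaP. For KRT18 siTET2 lay -0.55 to -0.62 from nc in DU145, and in LNCaP between -0.0022 and 0.08.

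KRT7 and KRT19 differed less with siTET2 where they were high. In DU145, siTET2 minus siControl was -0.18 for KRT7 and -0.05 for KRT19, with control differences of -0.15 and -0.19. In LNCaP, where both lay below the floor, the differences were -0.08 and 0.37, and against nc -0.49 and -0.15. For KRT19 in LNCaP the sign therefore changed with the control array.

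The basal keratins had siTET2 differences above 0 in both lines: 0.21 and 0.03 for KRT5, 0.06 and 0.22 for KRT14, and 0.10 and 0.09 for KRT15 (LNCaP and DU145). KRT14 in LNCaP was the only one of these values above the floor, and against nc it was -0.51. Over the 9 keratin probe sets, 8 were above 0 with a median of 0.10 in LNCaP and 3 with a median of -0.18 in DU145. These counts include probe sets below the floor, as 5 of the 9 were above it in LNCaP and 6 in DU145. All probe sets above the floor had medians of 0.01 and -0.01, with 52.9% and 47.1% of them above 0. The LNCaP count rests on the siControl array, since against nc 5 keratin probe sets were above 0 and 4 below, with a median of 0.01.

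The effect common to both lines was tested with limma over all 8 arrays, with line and construct as terms, on 10607 probe sets whose mean reached the median. Of the 7 keratin probe sets in it, 0 were called for siTET2 minus siControl, where 34 of all probe sets (0.321%) were, 0.0283% higher and 0.292% lower. KRT7 and KRT19 lay below the median in every LNCaP array, so they entered this fit through their DU145 values. KRT14 lay below the median in every DU145 array and entered through LNCaP. The common differences of KRT7, KRT19 and KRT14 thus include values from arrays where they lay below the median. KRT8 had a common difference of -0.06 (SE 0.185, limma adjusted p = 0.926), an average of values of opposite sign. KRT18 lay between -0.11 and -0.17 (SE 0.132 to 0.145, limma adjusted p from 0.638 to 0.783), KRT7 at -0.13 (SE 0.100, limma adjusted p = 0.624), KRT19 at 0.16 and KRT14 at 0.14. None of the 7 had an unadjusted limma p below 0.05, against 1428 of 10607 probe sets (13.5%), and 0 were called in any of the alternative fits. With nc as the control the common difference was -0.41 for KRT7 (limma adjusted p = 0.115), -0.16 for KRT8, -0.23 to -0.30 for KRT18, -0.19 for KRT19 and -0.14 for KRT14. The signs of KRT19 and KRT14 thus turned with the control. KRT5 and KRT15 entered only with no floor, with 0.12 and 0.10 (limma adjusted p = 0.846 for each). Between the lines, 3 of the 4 probe sets of KRT8 and KRT18 (all but 7955637) had siTET2 differences of opposite sign that each exceeded the control difference, against 6.59% of all probe sets. Against nc this held for KRT8 alone (8.79% of all probe sets), and on rank-matched values for KRT8 and 8154725 (6.51%). Whether the siTET2 difference itself differs between lines was not tested, as each line has 1 array per construct.

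**Figure D4:**
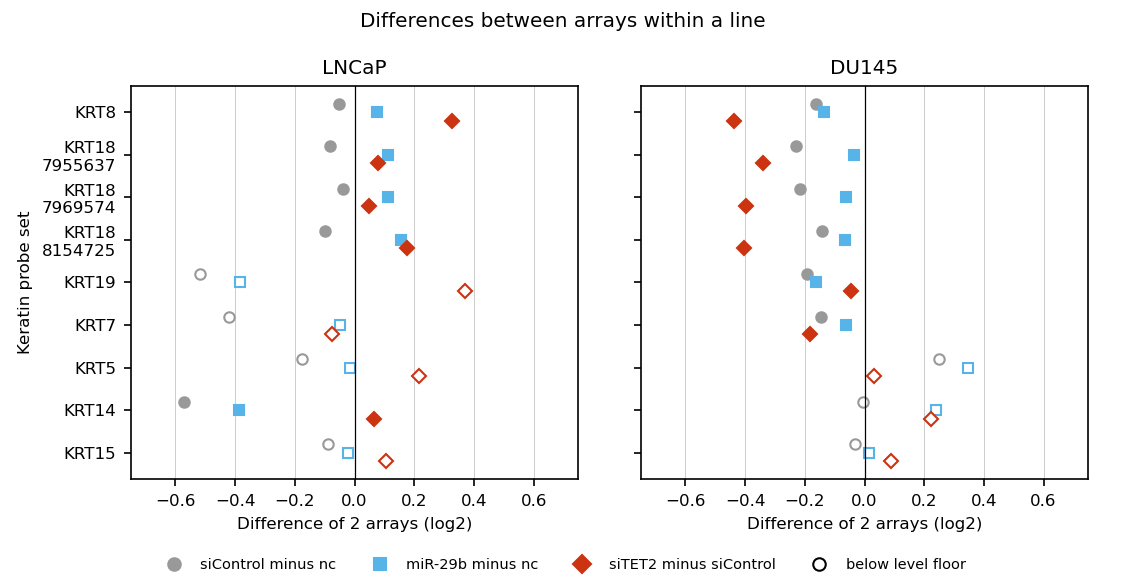
Differences of 2 arrays within a line (horizontal axis, log2) for each keratin probe set; grey is siControl minus nc, blue miR-29b minus nc and red siTET2 minus siControl, and open points lie below the level floor. The red points of KRT8 and KRT18 lie between -0.34 and -0.44 in DU145 and between 0.05 and 0.33 in LNCaP.

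With miR-29b, the third comparison of the design, the log2 differences of KRT8, KRT18 and KRT7 from nc were at most 0.16 in size. That of KRT8 was 0.08 in LNCaP and -0.14 in DU145, and those of KRT18 were 0.11 to 0.16 and -0.03 to -0.07. KRT7 was at -0.05 and -0.06. KRT19 was lower in both lines, at -0.38 in LNCaP, below the floor, and at -0.16 in DU145. Its common difference was -0.27 (SE 0.115), with an unadjusted limma p of 0.0443 and a limma adjusted p of 0.997. Against siControl, KRT19 with miR-29b was 0.14 and 0.03 higher.

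Among the basal keratins, KRT14 was at -0.39 with miR-29b in LNCaP and at 0.24 in DU145, KRT5 at -0.02 and 0.35, and KRT15 at -0.02 and 0.01. Against siControl, KRT14 with miR-29b was at 0.18 in LNCaP and 0.24 in DU145, so its sign in LNCaP turned with the control. Of these basal values, KRT14 in LNCaP was above the floor and the others below it. Limma called 0 of 10607 probe sets for miR-29b minus nc (0.0%), with 392 at an unadjusted p below 0.05, and 0 of the 7 keratin probe sets. No keratin probe set reached 1.5-fold with miR-29b, against 0.808% of all probe sets in LNCaP and 0.148% in DU145, and 0.0827% and 0.0% reached 2-fold. Of the 4 KRT8 and KRT18 probe sets, 0 had miR-29b differences of opposite sign in the lines that each exceeded the control difference, against 7.56% of all probe sets.

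The control arrays also differed from each other, for some keratins by more than siTET2 or miR-29b from its control and for others by less. With siControl, all 9 keratin probe sets lay below nc in LNCaP and 8 of 9 in DU145, where 54.4% and 42.6% of all probe sets above the floor lay above nc. The keratin medians were -0.10 and -0.15, against 0.02 and -0.03 for all probe sets above the floor. The keratin counts and medians include probe sets below the floor, as 5 of the 9 were above it in LNCaP and 6 in DU145. Most of the 41 other keratins, all below the floor in LNCaP, also lay below nc there. In LNCaP the gaps were largest for KRT14 (-0.57), KRT19 (-0.52) and KRT7 (-0.42), with KRT19 and KRT7 below the floor. In DU145 KRT5, below the floor, was the one above nc (0.25). The common siControl minus nc difference was -0.36 for KRT19 (SE 0.115, limma adjusted p = 0.355) and -0.28 for KRT7 (SE 0.100, limma adjusted p = 0.355). No keratin reached 1.5-fold there, against 2.52% of all probe sets in LNCaP and 0.37% in DU145, with 0.154% and 0.037% at 2-fold. Limma called 0 of 10607 probe sets in this comparison (0.0%), with 1416 at an unadjusted p below 0.05. The siTET2 value of a keratin is set against siControl and the miR-29b value against nc, so each rests on a control array of its own.

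The related lists were read in the same common fit. Limma called 0 of 11 genes of the linker list (9 without KRTCAP2 and KRTCAP3), 2 other filament genes, 8 luminal markers and 6 basal markers for siTET2 or for miR-29b. At an unadjusted limma p below 0.05, 1 luminal and 1 basal marker stood for siTET2 and 1 luminal marker for miR-29b, and 0 linkers or filament genes for either. Among all probe sets 13.5% stood there for siTET2 and 3.7% for miR-29b. In DU145, 3 of 11 genes of the linker list above the floor were above 0 with siTET2, with a median of -0.11 (-0.05 without KRTCAP2 and KRTCAP3), and in LNCaP 7 of 10, with a median of 0.05. KRT80, above the floor in DU145 alone, differed by 0.47 with siTET2 and by -0.31 with miR-29b there, where the control arrays differed by -0.24.

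After subtraction of each line's mean, the genes closest to each keratin over the 8 arrays were sought among 9727 to 9729 genes by Pearson r (for KRT18, with probe set 7969574). The closest to KRT8 were ETS2 (0.985), AMPD2 (0.976) and TMTC4 (0.973), and to KRT18 SLC50A1 (0.994), CHPF (0.989) and RHBDD2 (0.988). For KRT7 they were MESP2 (0.991), PUF60 (0.990) and H1-10 (0.974), and for KRT19 FBXL19 (0.986), CENPBD2P (0.975) and DEF8 (0.971). For KRT5 they were YJEFN3 (0.966), SPRR2F (0.951) and ZFTA (0.943), for KRT14 PRR12 (0.982), SIGIRR (0.978) and TMEM89 (0.976), and for KRT15 PIP5K1C (0.976), MAP7D1 (0.971) and SLC25A42 (0.970). Measured the same way, KRT8 had an r of 0.848 to 0.912 with the KRT18 probe sets, 0.436 with KRT19 and 0.242 with KRT7. The genes listed are those with the highest r of all compared, and the share of genes reaching such an r is not given here. For KRT5 and KRT15 in all 8 arrays, KRT7 and KRT19 in LNCaP and KRT14 in DU145, r includes signals below the median. All these r values are descriptions over 8 arrays that share 2 lines and 4 constructs.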

How the data were processed

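The deposited values were log2 signals for 33297 probe sets on 8 whole-transcript arrays, which the authors made with Affymetrix Expression Console and RMA, per the submitters' processing notes. Whether the lines were normalized together is not given in the sources used here. Probe sets were named from the platform annotation (19460 with 1 symbol, 1754 with several, 12083 not listed), and 19429 matched RefSeq. Within a line, 2 arrays were subtracted, with a floor at the array's 50th percentile in the higher array and folds of 2 and 1.5. Lines were compared on quantile-matched values, construct as a term, over all 21214 named probe sets, and constructs over 10607 with line as a term, both with limma 3.58.1 (R 4.3.3), 3 residual degrees of freedom and Benjamini-Hochberg adjustment at 0.05. Percentiles were tested with an exact permutation test (scipy 1.17.1, Python 3.11.15). The common fit was also run on simulated data with the same siTET2 shift in both lines. That setting covers neither shifts of opposite sign nor the line comparison. Precision is limited by the number of arrays.

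Named genes were all keratin probe sets, per list the members called in the common fit and up to 4 with the largest line difference, and per keratin the 3 genes most alike. Members and lists were chosen with earlier results of these data known. Alternatives were other controls, floors, folds, scales, a variance trend, no construct term and leaving out each array.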

Additional observations from a re-analysis of the deposited data

Results flagged for a closer look

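For 3 keratin probe sets the siTET2 minus siControl difference had opposite signs in the lines and exceeded, in each line, the difference between the control arrays. KRT8 was at 0.33 in LNCaP and -0.44 in DU145. KRT18 probe set 7969574 was at 0.0495 and -0.40, and probe set 8154725 at 0.18 and -0.40. Of the keratin probe sets above the floor in both lines, these are 3 of 4, against 6.59% of 9578 probe sets. With nc as the control the pattern held for KRT8 alone, since KRT18 in LNCaP was then at 0.01 (7969574) and 0.08 (8154725), inside control differences of -0.04 and -0.10. On rank-matched values it held for KRT8 and 8154725, and 7969574 in LNCaP was at 0.11 against a control difference of -0.15. The KRT18 probe sets share their transcripts and count as 1 gene. The difference between the lines was not tested, because each line has 1 array per construct.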

How the results depend on the processing

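For the constructs, 0 keratin probe sets passed 2-fold or the common fit under each alternative run. Between lines, keratin calls changed: KRT18 probe set 7955637 was called in 5 of 12 alternatives, KRT15 was lost (limma adjusted p = 0.205) and KRT14 gained (limma adjusted p = 0.0013) on deposited values, and KRT8 was gained with a variance trend (limma adjusted p = 0.0493) and without either siTET2 array. The opposite siTET2 signs in the lines held for 3 keratin probe sets, and for 1 against nc and 2 on rank-matched values, both chosen after seeing the data. Probe sets past 2-fold for siTET2 in LNCaP numbered 15, and 24 with no floor, 9 with a stricter floor, 8 against the mean of both controls and 297 at 1.5-fold. For miR-29b in LNCaP they numbered 9, and 22, 2 and 88 with no floor, a stricter floor and 1.5-fold. For siTET2 in DU145 they numbered 34, and 20 with a stricter floor and 261 at 1.5-fold. For miR-29b in DU145 they numbered 0, and 3 with no floor, 16 at 1.5-fold, 5 against siControl and 1 against the mean of both controls. Limma's common siTET2 calls numbered 34, and 1 with no floor, 16 against nc, 21 on rank-matched values, 81 with a stricter floor, 95 with a variance trend and 0 to 115 when 1 array was left out (0 without the DU145 siTET2 array or either siControl array, 6 without either miR-29b array, 115 without the LNCaP siTET2 array). Between lines, 14382 calls became 8279 of 10607 tested above the median and 13021 to 13564 when 1 array was left out. The 5 keratin calls became 3 with that floor, under which KRT5 and KRT15 were not tested, and 4 to 8 when 1 array was left out, the 8 without either siTET2 array. Leaving out an array leaves its construct with 1 array, assumed to vary like the others. Between lines, leaving out a construct's LNCaP array or its DU145 array gave the same fit, so the 12 alternatives are not all distinct. Other causes were not tested. Constructs are paired by line in the common fit. Beyond it, no block by replicate number could be fitted, since each group has 1 array and the groups share 1 number.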
